A study of Rattus norvegicus with 9 samples.

Results

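The genes described are 7 transporters of the blood-brain barrier, the capillary wall that separates blood from brain, measured by RNA sequencing in the frontal cortex of 9 rats. They were the efflux pumps Abcb1a and Abcg2, the organic anion carriers Slco1a2 and Slco1c1, and the nutrient carriers Slc2a1, Slc7a5 and Mfsd2a. They were taken by name, 7 of 37209 genes in the count table, and all 7 were among the 16837 genes with enough counts to be tested. The set was chosen from the levels of these genes in the same 9 rats, so the values in the 3 comparisons between groups are a description. Counts of these genes past a threshold are not read as a test. The other gene lists below were also chosen with earlier results of these data known, so their shares are descriptions too. All animals were male Wistar rats and the cortex was taken at 14 weeks. Control rats (A1, A2 and A6) were not separated from their mothers. MS rats (B3, B4 and B6) had been taken from their mothers for 4 h a day on postnatal days (PND) 1 to 21, a model of early-life stress. MS+EA rats (C3, C10 and C16) had the same separation and then electroacupuncture (EA) on PND 61 to 81, every other day and under isoflurane. The study's methods give the other groups the anaesthesia alone, and none of the 9 rats had needles without current, so needling, current and their combination cannot be told apart. The labels do not name litters. The letter in a rat's name stands for its group and the number is the replicate number in the labels.

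Brain capillary endothelial cells are sealed by tight junctions, so nutrients, hormones and drugs cross them mainly through membrane transporters. ATP-binding cassette (ABC) pumps return drugs and other lipophilic compounds to the blood, while solute carriers admit glucose, amino acids, lipids and thyroid hormone. Slco1c1 and Abcb1a are commonly used as markers of this endothelium, but Slc2a1 and Slc7a5 are also used by other brain cells. The samples were bulk tissue, so fewer endothelial cells and less RNA per cell cannot be told apart.

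RefSeq promoter sequences were at hand for 4 of the 7 genes, and those of the pair of efflux pumps are shown because these genes share a role but stood on opposite sides of the Control rats in MS. Each runs 5′ to 3′ on the gene's own strand, from 250 bases before the gene's start to 50 bases after it, in the GRCr8 assembly. That of Abcb1a lies at chr4:26397599-26397898 on the minus strand and that of Abcg2 at chr4:89075224-89075523 on the plus strand. Capitals mark matches, on either strand, to the GC box (GGGCGG), the CCAAT box (CCAAT), the TATA box (TATAAA) and the core letters ACGTG and GCGTG.
Abcb1a: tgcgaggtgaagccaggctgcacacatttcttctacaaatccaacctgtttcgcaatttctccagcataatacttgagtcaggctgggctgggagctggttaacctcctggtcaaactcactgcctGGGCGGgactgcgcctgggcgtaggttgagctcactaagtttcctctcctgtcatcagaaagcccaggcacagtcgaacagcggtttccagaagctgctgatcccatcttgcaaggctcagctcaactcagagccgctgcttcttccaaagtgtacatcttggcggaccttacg
Abcg2: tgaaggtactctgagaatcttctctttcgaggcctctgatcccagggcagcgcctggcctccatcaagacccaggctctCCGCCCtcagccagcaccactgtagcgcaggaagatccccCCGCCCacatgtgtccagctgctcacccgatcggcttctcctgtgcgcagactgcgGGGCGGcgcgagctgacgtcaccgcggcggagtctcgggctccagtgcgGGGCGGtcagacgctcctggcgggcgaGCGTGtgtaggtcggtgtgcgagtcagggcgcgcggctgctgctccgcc
The Abcb1a promoter held 1 GC box and 53.7% G and C bases, whereas that of Abcg2 held 4 GC boxes and 68.0%. A GC box was present in 33.1% of the 33469 promoters in the same table, a CCAAT box in 37.5%, a TATA box in 14.2%, ACGTG in 19.3% and GCGTG in 29.7%. These matches describe letters in the window and were not tested for use.

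Libraries held 12479905 to 19007907 counts, and the MS+EA libraries, at 12479905 to 14913736, were all shallower than the others. Levels are given as counts per 1000000 (CPM), scaled by library size and the trimmed mean of M-values (TMM). B4 stood apart from the other 8 rats: the 10 fibroblast and meningeal genes (collagens, Igf2 and Ptgds among them) summed to 1950.1 CPM there. The same sum was 107 to 173 CPM in Control rats, 194 and 307 CPM in the other MS rats and 230.4 to 734 CPM in MS+EA rats. Results for the transporters that rest on the MS group are therefore also given without B4. Where the text says that a gene passed the test, the edgeR quasi-likelihood test gave an adjusted p under 0.05 with a fold over 1.5.

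The organic anion carriers were both higher on average in MS than in Control rats, with separate groups for Slco1a2 alone. Slco1a2 encodes a carrier of bile salts, steroid conjugates and thyroid hormone at the capillary wall. Its level was 74.1, 65.8 and 63.5 CPM in the Control rats, 103, 123 and 97.0 CPM in the MS rats and 97.5, 91.5 and 94.6 CPM in the MS+EA rats. Every MS and MS+EA rat lay above every Control rat, and B4 was the highest of all. Group means were 67.8 ± 5.57, 108 ± 13.8 and 94.5 ± 2.97 CPM (SD, n = 3 each). The log2 fold change, with its standard error (SE), was 0.67 (SE 0.0928) in MS against Control, -0.19 (SE 0.0922) in MS+EA against MS and 0.48 (SE 0.0932) in MS+EA against Control. Without B4 the log2 fold changes in the comparisons that use the MS rats were 0.56 against Control and -0.07 for MS+EA against MS. The 3 MS+EA rats were close together, with the highest only 1.06 times the lowest, and 90.3% of the 11638 genes with a mean of at least 5 CPM had a wider range in that group.

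The symbol of this row needs care. Current RefSeq names list Slco1a2 of the rat as an older symbol of both Slco1a4 and Slco1a5, both carriers of the same family. Slco1a5 had its own row, with at most 8 counts in any rat, and Slco1a4 was not among the rows analysed here. The values above are those of the row labelled Slco1a2.

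Slco1c1 encodes the carrier that brings thyroxine into the brain. It stood at 65.9, 65.1 and 60.99 CPM in the Control rats, 77.2, 76.2 and 64.6 CPM in the MS rats and 76.2, 70.8 and 58.4 CPM in the MS+EA rats. The groups overlapped in all 3 comparisons: B6 lay below the highest Control rat, and C16 was the lowest of all 9. Mean levels were 64.0 ± 2.63, 72.6 ± 6.997 and 68.5 ± 9.11 CPM (SD, n = 3 each). The log2 fold changes were 0.18 (SE 0.101), -0.08 (SE 0.101) and 0.10 (SE 0.101) in the order given for Slco1a2, each within 2 SE of 0. Without B4 the first and second were 0.15 and -0.04.

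**Figure D1:**
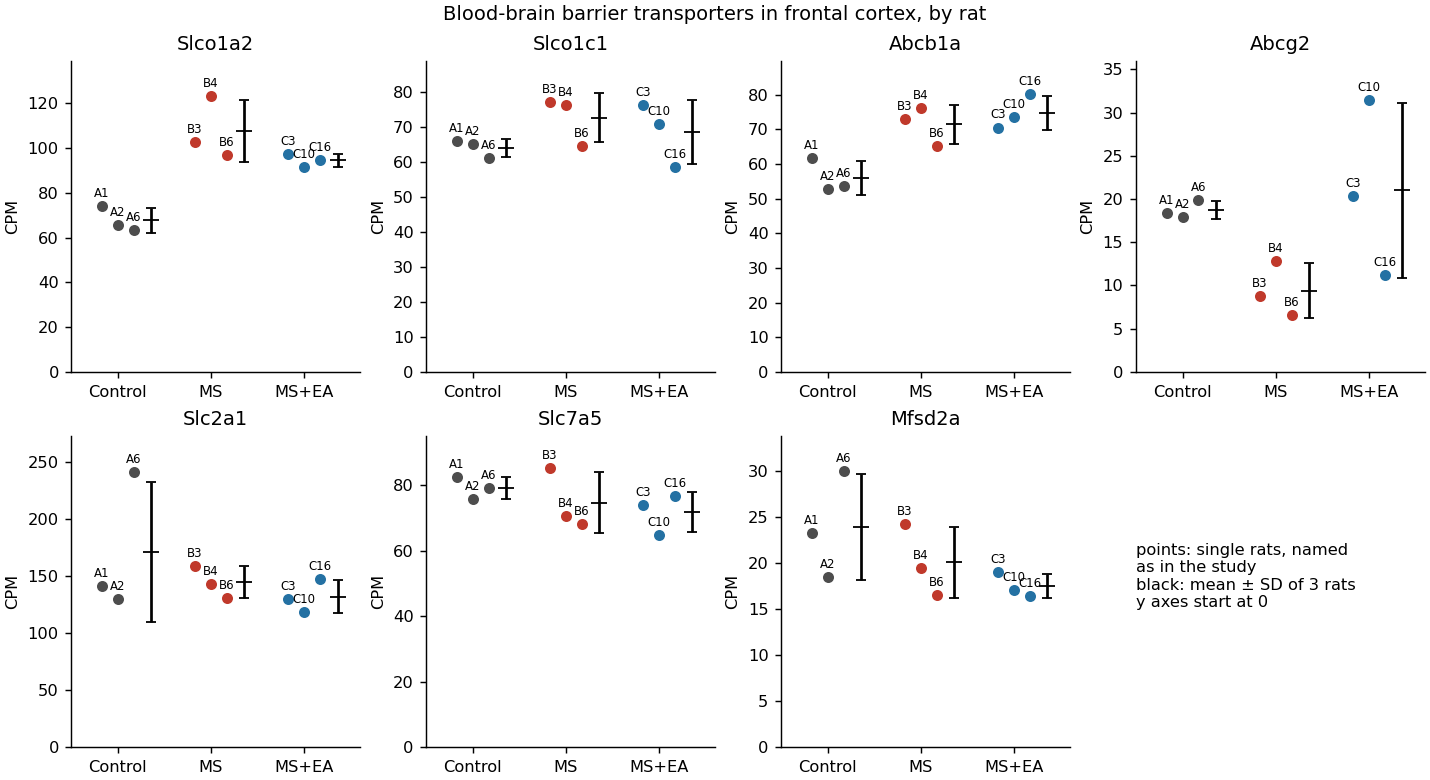
Level of each transporter in every rat, in CPM on axes that start at 0, with Control in grey, MS in red and MS+EA in blue, and the mean ± SD of 3 rats in black. Slco1a2 and Abcb1a lay higher in every MS and MS+EA rat than in any Control rat, Abcg2 lay lower in every MS rat than in any Control rat and was spread widely among the MS+EA rats, and Slc2a1 was highest in A6.

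The pair of efflux pumps stood on opposite sides of the Control rats in MS, Abcb1a above and Abcg2 below. Abcb1a encodes P-glycoprotein, which expels a broad range of drugs and also glucocorticoids. Its level was 61.5, 52.7 and 53.5 CPM in the Control rats, 72.9, 76.1 and 65.1 CPM in the MS rats and 70.5, 73.6 and 80.0 CPM in the MS+EA rats. All 6 separated rats lay above the 3 Control rats, and the MS and MS+EA rats overlapped. The means were 55.9 ± 4.89, 71.4 ± 5.65 and 74.7 ± 4.87 CPM (SD, n = 3 each). The log2 fold change of Abcb1a was 0.35 (SE 0.0880) in MS against Control, 0.07 (SE 0.0877) in MS+EA against MS and 0.42 (SE 0.0883) in MS+EA against Control. Leaving out B4 gave 0.30 and 0.12 for the first and second, on the same log2 scale. Its neighbour and close copy Abcb1b had only 11 to 30 counts per rat. How reads that fit both genes were counted is not given in the sources used here, so the split between these close copies is uncertain.

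Abcg2 encodes the breast cancer resistance protein, the other main drug pump of the barrier. Its level was 18.4, 17.9 and 19.9 CPM in the Control rats, 8.81, 12.8 and 6.55 CPM in the MS rats and 20.3, 31.4 and 11.2 CPM in the MS+EA rats. Each MS rat lay below each Control rat. The MS+EA rats did not form a group apart: C10 had the highest level of all 9 rats, C3 was near the Control rats and C16 lay among the MS rats. The means were 18.7 ± 1.06, 9.39 ± 3.17 and 21.0 ± 10.1 CPM (SD, n = 3 each). On the log2 scale the fold change was -0.995 (SE 0.304) in MS against Control, 1.17 (SE 0.305) in MS+EA against MS and 0.17 (SE 0.293) in MS+EA against Control. The value for MS+EA against MS was 0.75 without C10 and 1.46 without C16, and that for MS+EA against Control was -0.24 without C10 and 0.47 without C16. The direction of the latter thus depended on which rats were included. Without B4, MS against Control was -1.28 and MS+EA against MS was 1.46.

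The range of Abcg2 within a group was wide beside that of other genes. Among the MS+EA rats the highest level was 2.80 times the lowest, and 0.601% of the 11638 genes had a larger ratio. In the MS rats the ratio was 1.96 (1.68% of genes had a larger one), whereas in the Control rats it was 1.11. The median ratio over those genes was 1.15 in Control, 1.15 in MS and 1.20 in MS+EA rats. Abcg2 rested on 109 to 469 counts per rat.

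The nutrient carriers had lower means in MS and in MS+EA than in Control rats, but the groups overlapped for all 3 genes. Slc2a1 encodes GLUT1, which carries glucose across the endothelium and into astrocytes. Its level was 141, 129.5 and 241 CPM in the Control rats, 159, 143 and 131 CPM in the MS rats and 129.7, 118 and 147 CPM in the MS+EA rats. A6 stood alone, at 1.52 times the next highest rat, B3. The means were 170.5 ± 61.2, 144 ± 14.0 and 132 ± 14.6 CPM (SD, n = 3 each). The log2 fold change of Slc2a1 was -0.24 (SE 0.184) in MS against Control, -0.13 (SE 0.186) in MS+EA against MS and -0.37 (SE 0.185) in MS+EA against Control. Without A6 the comparisons with Control gave 0.09 and -0.04, so the lower level relative to Control rested on that rat. A6 was the highest rat for 1325 of the 11638 genes (11.4%), and by at least 1.5-fold for 19 (0.163% of the 11638), Slc2a1 included. That last count was 3 for A1 and 4 for A2, and only B4, with 43, had more than A6.

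Mfsd2a encodes a lysolipid carrier that brings docosahexaenoic acid into the brain and limits vesicle traffic across the endothelium. The rats stood at 23.2, 18.5 and 30.0 CPM in Control, 24.2, 19.5 and 16.5 CPM in MS and 19.01, 17.0 and 16.5 CPM in MS+EA. A6 was again the highest, and the 3 MS+EA rats lay close together at the lower end of the range. The means were 23.9 ± 5.81, 20.1 ± 3.87 and 17.5 ± 1.34 CPM (SD, n = 3 each), with log2 fold changes of -0.25 (SE 0.173), -0.20 (SE 0.177) and -0.45 (SE 0.176) in the same order of comparisons. Without A6 the log2 fold change was -0.06 in MS against Control and -0.25 in MS+EA against Control.

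Slc7a5 encodes LAT1, the carrier of large neutral amino acids, levodopa and thyroid hormone, and pairs with the heavy chain encoded by Slc3a2. Its level was 82.4, 75.7 and 79.3 CPM in the Control rats, 85.3, 70.5 and 68.0 CPM in the MS rats and 73.9, 64.8 and 76.6 CPM in the MS+EA rats. Differences between groups were small, and B3 had the highest level of all. The means were 79.1 ± 3.35, 74.6 ± 9.36 and 71.8 ± 6.19 CPM (SD, n = 3 each), and the log2 fold changes were -0.08 (SE 0.0945), -0.06 (SE 0.0952) and -0.14 (SE 0.0951). Slc3a2 was at 123 ± 11.3, 109 ± 13.7 and 94.1 ± 14.9 CPM (SD, n = 3 each), with a log2 fold change of -0.38 (SE 0.119) in MS+EA against Control that did not pass the test (edgeR adjusted p = 0.0785). Leaving out B4 moved the log2 fold changes of Slc2a1, Mfsd2a and Slc7a5 by less than their SE in the comparisons that use the MS rats. Transcript lengths were not at hand, so levels are not compared between genes.

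In MS against Control, 1 of the 7 transporters, Slco1a2, was past both thresholds, beside 0.0238% of all genes tested. An unadjusted p under 0.05 was reached by 3 of the 7 (10.6% of all genes), and the groups did not overlap for the same 3, Slco1a2, Abcb1a and Abcg2 (17.6% of all genes). For MS+EA against MS the edgeR quasi-likelihood test put 0 of 7 past both thresholds (0.0178% of all genes), as did DESeq2, whereas the likelihood ratio test of edgeR put Abcg2 past them. In that comparison 1 of 7, Abcg2, had an unadjusted p under 0.05 (12.4% of all genes), and 0 of 7 had groups that did not overlap (17.9%). The last comparison, MS+EA against Control, had 0 of 7 past both thresholds by edgeR (1.37% of all genes) or by DESeq2, 3 had an unadjusted p under 0.05 (22.5%), and 2, Slco1a2 and Abcb1a, had groups that did not overlap (25.9%). Because the genes were chosen from these levels, nothing is read from the difference between these shares. The 1.37% itself came from 230 genes, a count that was 71 without A1 and 121 without C10. The 3 comparisons share groups, so a high or low group enters a pair of them. The median log2 fold change of the 7 was -0.08, -0.08 and 0.10 in the 3 comparisons, beside a median over all genes tested within 0.01 of 0 in each. The count for MS against Control rested on single rats: without A1, A2, A6 or B4 it was 0. The log2 fold change of Slco1a2 itself ranged from 0.56 to 0.74 when each of the 9 rats was left out in turn.

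**Figure D2:**
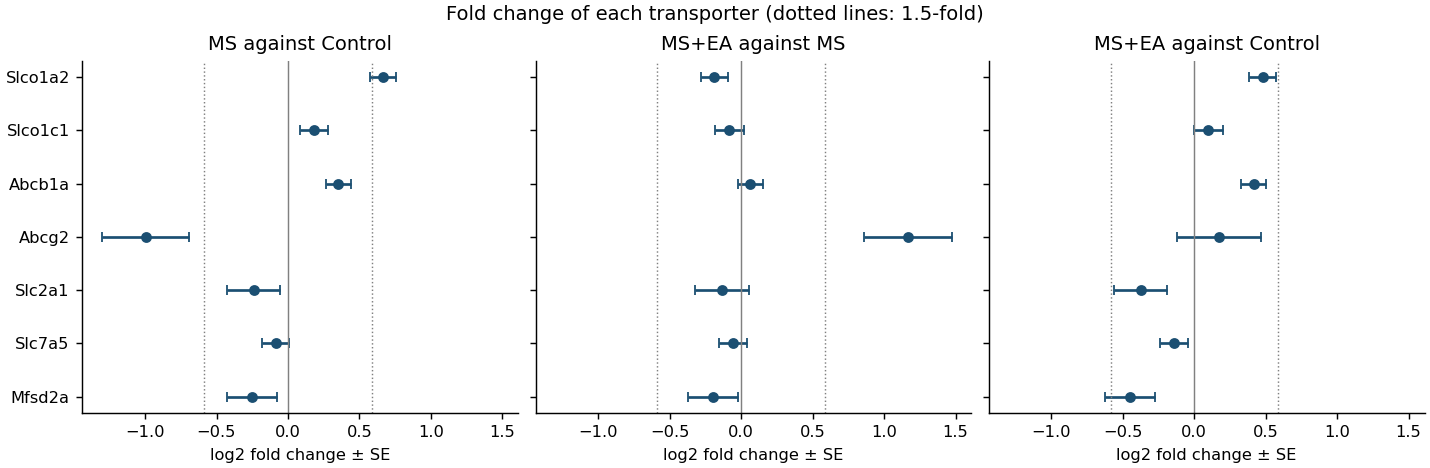
Log2 fold change of each transporter in the 3 comparisons, with bars of 1 SE from the edgeR fit over 9 rats and dotted lines at a fold of 1.5. Slco1a2 lay beyond the upper line in MS against Control (0.67), Abcg2 beyond the lower line there (-0.995) and beyond the upper line in MS+EA against MS (1.17), and the bars of Abcg2 were the longest.

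The amount of endothelial RNA moved with some of these values. The 25 endothelial identity genes, among them Pecam1, Cdh5 and Flt1, were all detected and summed to 775 to 873 CPM in Control rats, 943 to 1121 CPM in MS rats (1004 and 943 CPM without B4) and 826 to 1003 CPM in MS+EA rats. All 25 had a log2 fold change above 0 in MS against Control, with a median of 0.25, and without B4 22 of 25 did, with a median of 0.20. The comparison of MS+EA with MS had 22 of 25 below 0, with a median of -0.18, and the median of MS+EA against Control was 0.06. None of the 25 passed the edgeR test in any comparison. An unadjusted p under 0.05 was reached by 8, 6 and 4 of them in the 3 comparisons. These are 32%, 24% and 16%, beside 10.6%, 12.4% and 22.5% of all genes, so the last was below the share of all genes. As the list was chosen with earlier results known, these shares are not read as a test. DESeq2 called Kdr in MS against Control.

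Each transporter was therefore also given per 100 counts of the 25 endothelial genes in the same rat. The endothelial sum averaged 837 CPM in Control, 1023 CPM in MS and 913 CPM in MS+EA rats. Dividing by it moves every gene down relative to Control, most in MS. The share of all genes with separate groups on this scale was not counted, so separation on it is a description only. On this scale Slco1a2 had 8.11 ± 0.654 in Control, 10.5 ± 0.432 in MS and 10.4 ± 0.684 in MS+EA rats (SD, n = 3 each), and each MS and MS+EA rat still lay above each Control rat. The difference of the mean log2 values of MS and Control was 0.38, smaller than the 0.67 found on library scaling. Abcb1a had 6.68 ± 0.435, 6.98 ± 0.246 and 8.24 ± 1.06 counts per 100, and the groups now overlapped in all 3 comparisons. Its log2 difference was 0.07 between MS and Control, 0.23 between MS+EA and MS, and 0.30 between MS+EA and Control. In the last, the overlap was a near tie of C3 at 7.03 and A1 at 7.05. The difference of Abcb1a between MS and Control was thus close to that of the endothelial sum, and that of Slco1a2 exceeded it. Slco1c1 had 7.67 ± 0.680, 7.11 ± 0.5003 and 7.53 ± 1.08 and overlapped throughout.

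Abcg2 differed more on the endothelial scale than on library scaling in the comparisons that use the MS rats. The scale does this to any gene that is lower in MS than in both other groups. It had 2.24 ± 0.118 counts per 100 endothelial counts in Control, 0.905 ± 0.226 in MS and 2.35 ± 1.32 in MS+EA rats (SD, n = 3 each). Every MS rat lay below every Control rat, and every MS+EA rat lay above every MS rat, the nearest pair being C16 at 1.23 and B4 at 1.14. The log2 difference was -1.33 in MS against Control and 1.26 in MS+EA against MS. It was -0.08 in MS+EA against Control, of the opposite sign to the 0.17 on library scaling. The nutrient carriers were lower relative to Control on this scale than on library scaling, as division by the endothelial sum makes every gene. Slc7a5 had 9.46 ± 0.294, 7.33 ± 1.11 and 7.87 ± 0.523 counts per 100, and every separated rat now lay below every Control rat. Slc2a1 had 20.3 ± 6.63, 14.1 ± 1.54 and 14.4 ± 1.60, again with all 6 separated rats below the 3 Control rats, though A6 at 27.9 stood far above A1 at 16.2 and A2 at 16.7. The nearest pair of Slc2a1, C16 at 16.12 and A1 at 16.15, almost tied. Mfsd2a had 2.84 ± 0.569, 1.97 ± 0.385 and 1.92 ± 0.130, and only MS+EA and Control were separate. Part of the RNA of Slc2a1 and Slc7a5 can come from other cells, for which this scale does not account. Without B4 the log2 differences in MS against Control on this scale were 0.34 for Slco1a2, 0.09 for Abcb1a, -1.52 for Abcg2 and -0.27 for Slc7a5.

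**Figure D3:**
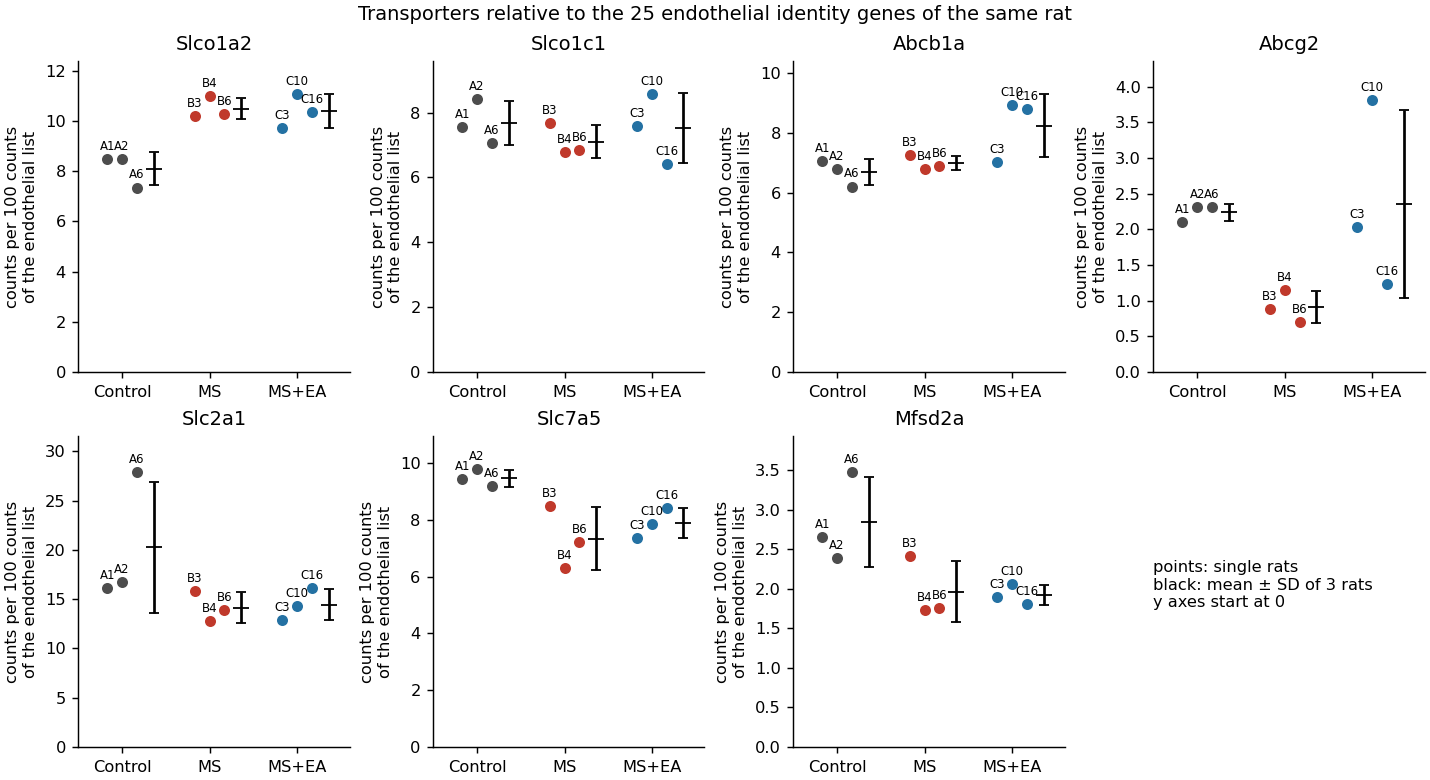
Counts of each transporter per 100 counts of the 25 endothelial identity genes in the same rat, on axes that start at 0, with the rats of each group as points and their mean ± SD (n = 3) in black. Slco1a2 lay higher in all 6 separated rats than in Control rats, Slc7a5 and Slc2a1 lay lower, and Abcg2 was lower in MS rats than in the rats of either other group. For Slc2a1 the nearest pair, C16 and A1, almost tied. The share of all genes with separate groups on this scale was not counted.

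The other carriers of the barrier were measured alongside. Of 38 listed genes (ABC transporters, organic anion and thyroid hormone carriers, and nutrient carriers), 37 had a row and 36 were tested, and edgeR and DESeq2 each called 0 of 36 in MS+EA against MS and in MS+EA against Control. In MS against Control edgeR called 0 and DESeq2 called 1, Slc16a1. Without B4, edgeR called 1 in MS+EA against Control, Slc22a8. An unadjusted p under 0.05 was reached by 5, 3 and 7 of the 36 in the 3 comparisons. These are 13.9%, 8.33% and 19.4%, beside 10.6%, 12.4% and 22.5% of all genes. The median log2 fold change of the 36 was 0.03, -0.05 and -0.01. Slc16a1, the MCT1 carrier of lactate and ketone bodies, had the smallest p among them. It stood at 33.3 ± 4.36 CPM in Control, 50.7 ± 1.92 in MS and 41.7 ± 4.24 in MS+EA rats (SD, n = 3 each), and its MS and Control rats did not overlap. Its log2 fold change in MS against Control was 0.60 (SE 0.105), which did not pass the test (edgeR adjusted p = 0.0578), though it did when C10 was left out. Slc27a4, a fatty acid transport protein, had a log2 fold change of -0.34 (SE 0.0756) in MS+EA against Control with an edgeR adjusted p of 0.0279, under the fold threshold.

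The 8 other ABC transporters had median log2 fold changes of 0.03, 0.00 and 0.03, and none had an unadjusted p under 0.05 in any comparison. Those with the smallest p were Abcc3, at 0.41 (SE 0.192) in MS against Control, and Abcc1 and Abca2, at -0.16 (SE 0.0872) and -0.13 (SE 0.0824). Among the thyroid hormone and organic anion carriers, Slc22a8, an organic anion carrier, had a log2 fold change of 1.09 (SE 0.327) in MS against Control (edgeR adjusted p = 0.228), with 35.1 CPM in B4, 12.8 in B3 and 15.1 in B6. The prostaglandin carrier Slco2a1, at only 1.04 ± 0.258, 2.93 ± 3.39 and 3.56 ± 2.47 CPM (SD, n = 3 each), had 1.47 (SE 0.788) in that comparison and 1.75 (SE 0.788) in MS+EA against Control (edgeR adjusted p = 0.213). Without B4 the value in MS against Control was -0.10 for Slco2a1, of the opposite sign, and 0.502 for Slc22a8. The 23 other nutrient carriers had medians of 0.01, -0.10 and -0.08.

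Genes of junctions, vesicles and signals of the barrier were also listed, and none of these was past both edgeR thresholds in any comparison. Bulk tissue does not show which cells their RNA came from, and part of it can come from outside the endothelium. Of 10 tight junction genes, 4 had an unadjusted p under 0.05 in MS against Control (10.6% of all genes did), all higher. Their median log2 fold changes were 0.17, -0.09 and 0.07. Cldn5, the main claudin of brain capillaries, was at 47.5 ± 2.45, 58.4 ± 2.80 and 48.9 ± 1.85 CPM (SD, n = 3 each), with a log2 fold change of 0.30 (SE 0.0756) in MS against Control (edgeR adjusted p = 0.171) and -0.25 (SE 0.0760) in MS+EA against MS (edgeR adjusted p = 0.245). Tjp1, the scaffold ZO-1, had 0.30 (SE 0.0721) in MS+EA against Control with an edgeR adjusted p of 0.0359 and a fold under 1.5, and Cldn12 had 0.21 (SE 0.0908) in MS against Control. The 8 caveolar genes, counterparts of Mfsd2a in vesicle traffic, had medians of 0.28, -0.07 and 0.21, the first of which was 0.12 without B4. Cav2 led them at 0.68 (SE 0.198) in MS+EA against Control (edgeR adjusted p = 0.0649, and called by DESeq2), followed there by Sdpr (cavin 2) at 0.64 (SE 0.218), while Prkcdbp (cavin 3) was at -0.36 (SE 0.153) in MS+EA against MS.

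The 8 receptors that carry cargo across the endothelium had medians of 0.02, -0.07 and 0.09. In MS against Control Tfrc, the transferrin receptor, had a log2 fold change of 0.28 (SE 0.116) and Lrp8 had 0.22 (SE 0.0892). Of 18 genes of the Wnt and beta-catenin programme that induces several of these transporters in development, 16 were tested, and their medians were 0.11, -0.07 and 0.11. Apcdd1, a Wnt target of the brain endothelium, had 0.31 (SE 0.0993) in MS against Control and -0.39 (SE 0.1003) in MS+EA against MS, the co-receptor Tspan12 had 0.38 (SE 0.105) in MS against Control, and Ctnnb1, which encodes beta-catenin, had -0.20 (SE 0.0629) in MS+EA against Control. The growth factor receptors Kdr and Tek had 0.88 (SE 0.193) and 0.55 (SE 0.107) in MS against Control (edgeR adjusted p = 0.129 and 0.108), and Itm2a had 0.42 (SE 0.0932) (edgeR adjusted p = 0.132). Pecam1, Cdh5 and Flt1 had smaller values of 0.27 (SE 0.174), 0.16 (SE 0.204) and 0.22 (SE 0.154).

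Markers of cells that adjoin the capillaries varied between the same groups. The pericyte and smooth muscle list summed to 244 to 272 CPM in Control, 297 to 441 in MS and 266 to 324 in MS+EA rats, and 14 of 14 tested genes had a log2 fold change above 0 in MS against Control (median 0.33), or 12 of 14 without B4 (median 0.36). For fibroblast and meningeal genes 10 of 10 were above 0 (median 2.22), but this size rested on B4: without it 9 of 10 were, with a median of 0.79. In MS+EA against Control 9 of 10 were (median 1.88). None of the 10 passed the edgeR test over all 9 rats, and without B4, 6 of them did in MS+EA against Control, Col1a1, Col1a2, Col3a1, Igf2, Aldh1a2 and Ptgds. Red blood cell genes summed to 119.6 to 236, 271 to 378 and 237 to 364 CPM, with 7 of 7 tested above 0 in MS against Control (median 0.87, or 0.73 without B4). Choroid plexus markers were near the detection limit, at 3.64 to 5.31, 4.32 to 23.0 and 3.35 to 8.12 CPM for 10 genes together, and Otx2 had 0 counts in all 9 rats. Astrocyte genes had medians of 0.04, -0.19 and -0.11, and neuron genes 0.03, -0.10 and -0.01. In MS+EA against Control 5 of 10 neuron genes were above 0 and 5 below. Of the latter, Slc17a7 (-0.30), Tubb3 (-0.32) and Camk2a (-0.36) had edgeR adjusted p of 0.0207, 0.0252 and 0.0387, under the fold threshold. The part of vessel, meningeal and blood cell content in the levels of the 7 transporters was not tested.

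**Figure D4:**
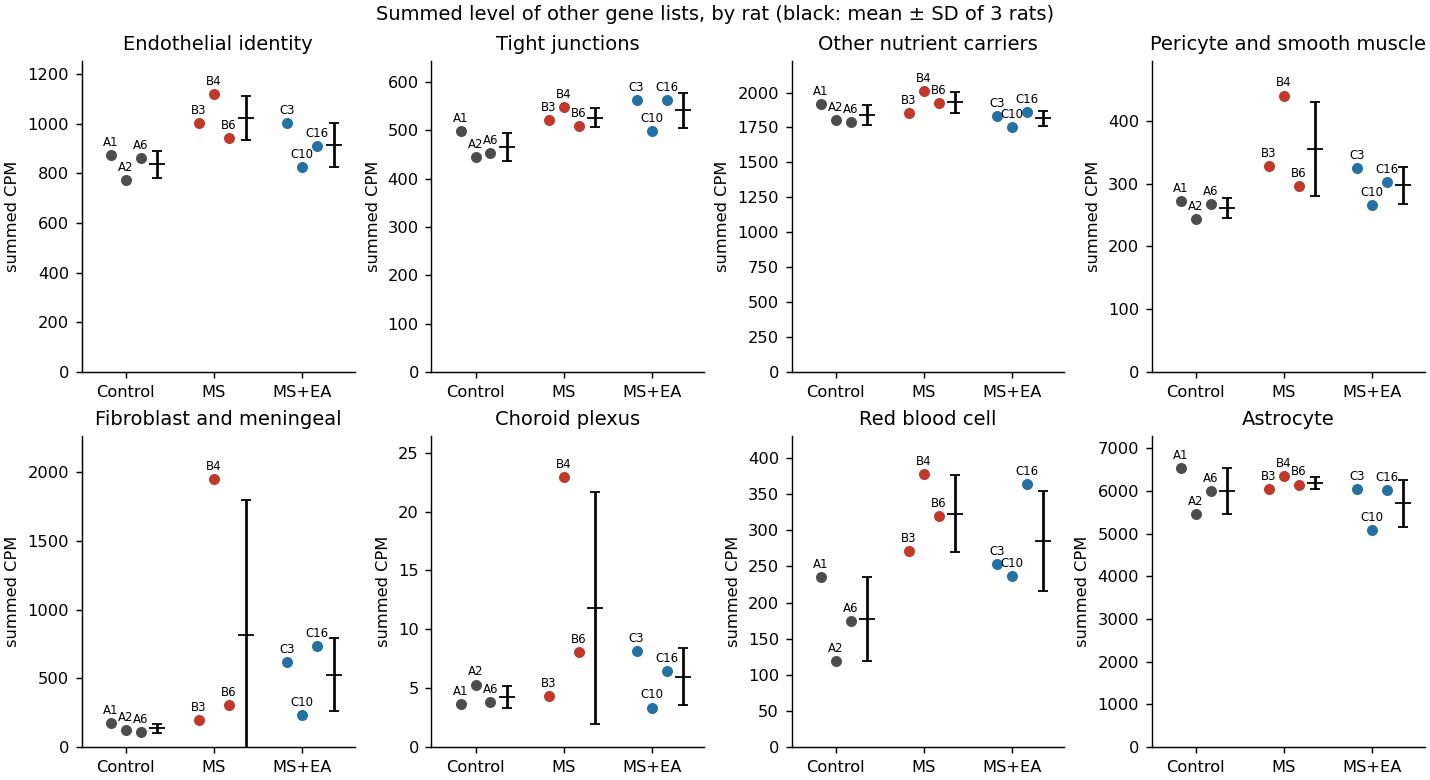
Summed level of 8 other gene lists in every rat, in CPM on axes that start at 0, with the mean ± SD of 3 rats in black. The endothelial, pericyte and red blood cell sums were higher in the 3 MS rats than in the 3 Control rats, B4 stood apart for fibroblast and meningeal genes (the lower end of the SD bar of MS falls below 0 and is not drawn), and astrocyte sums overlapped.

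The 7 transporters did not vary as 1 group from rat to rat. Over the 9 rats, the pairs with the highest Pearson correlation of log2 CPM were Abcb1a with Slco1a2 (Pearson's r = 0.88, Spearman's rho = 0.67) and Slc2a1 with Mfsd2a (r = 0.84, rho = 0.53). By rank the order differed, with Slc2a1 and Slc7a5 highest (r = 0.53, rho = 0.68). These correlations are descriptions over 9 rats that share group, library and dissection. The 3 genes whose profile was most like that of each transporter are given in the same way. They had the highest r out of the 16837 genes tested. The highest of so many values over 9 rats can be large without a link, and none was tested. For Slco1a2 they were Calcrl (r = 0.97, rho = 0.93), an endothelial receptor for adrenomedullin, Pnrc2 (r = 0.96, rho = 0.77) and Msrb3 (r = 0.95, rho = 0.95), all highest in B4. For Abcb1a they were the magnesium channel Trpm6 (r = 0.95, rho = 0.92), Bet1 (r = 0.94, rho = 0.85) and LOC100912115 (r = 0.95, rho = 0.97).

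The genes most like Slco1c1 were Ltc4s (r = 0.94, rho = 0.95), the leukotriene C4 synthase, Ankrd44 (r = 0.93, rho = 0.83) and Mrpl12 (r = 0.93, rho = 0.93), all lowest in C16. Those most like Abcg2 were Nars2 (r = 0.92, rho = 0.87), Grb14 (r = 0.92, rho = 0.88) and LOC686932 (r = 0.94, rho = 0.95), and all 3 were lowest in B6, as Abcg2 was. The ratio of the highest to the lowest rat was 4.80 for Abcg2, 5.57 for LOC686932, 1.35 for Nars2 and 1.24 for Grb14. LOC686932 was at only 1.01 CPM in C10, its highest rat, and 0.180 CPM in B6, so its profile and ratio rest on few counts. For Slc2a1 the list was Ddit4 (r = 0.95, rho = 0.80), a gene induced by stress hormones and low oxygen, Tagap (r = 0.95, rho = 0.77) and Pptc7 (r = 0.95, rho = 0.78). All 3 were highest in A6, with Ddit4 at 46.3 CPM there and 30.6 CPM in the next rat, B3. For Mfsd2a it was the lipoprotein receptor Scarb1 (r = 0.94, rho = 0.92), Kifc2 (r = 0.94, rho = 0.92) and Acaa1a (r = 0.94, rho = 0.98), again highest in A6. For Slc7a5 it was Tert (r = 0.97, rho = 0.95), Arhgef10l (r = 0.97, rho = 0.98) and Map2k7 (r = 0.96, rho = 0.95), all highest in B3 and lowest in C10.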

How the data were processed

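RNA was extracted from the frontal cortex of 9 male Wistar rats, 3 in each of the groups Control, MS and MS+EA. The authors aligned the reads with HISAT2 2.0.4 to the Rnor_6.0 genome, according to the study's methods and processing notes, and deposited raw counts per gene in 1 table of 37209 genes, keyed by symbol. How reads on overlapping genes or close copies were assigned, and whether strand was used, is not given in the sources used here.

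Groups came from the labels. The 7 transporters and the gene lists were chosen with earlier results of these data known, so no p-value is printed for a transporter. Counts of transporters past a threshold are given beside the share of all genes and are not read as a test. Shares of the other gene lists are not read as a test either. Counts were fitted with edgeR 4.0.16 in R 4.3.3 (TMM scaling, filterByExpr with its minimum count of 10, 1 mean per group over all 9 rats, quasi-likelihood F test). P-values were adjusted by the Benjamini-Hochberg method over the 16837 genes tested. Calls required a fold over 1.5 together with an adjusted p under 0.05, as the study's methods did. SEs of log2 fold changes were derived from F. The biological coefficient of variation was 12.7%. The fit was also run on simulated counts with changes set in MS. Those counts held no rat that stood apart, so they do not show how the fit handles rats such as B4 or A6.

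Named genes were the transporters, any listed gene past both thresholds, up to 3 genes with the smallest unadjusted p in each list of barrier genes, a few endothelial markers and relatives of the transporters, and the 3 genes with the highest Pearson correlation to each transporter (log2 of CPM + 0.5). Nr3c1, Thra and the single genes of other cell types were named after their values were seen. Alternatives were DESeq2 1.42.0, the edgeR likelihood ratio test, other scalings and filters, fits of 6 rats and leaving out each rat. The endothelial scale divides a transporter's counts by the summed counts of 25 genes, and its version without B4, like the list medians without B4, was chosen after seeing the data. Promoters came from RefSeq (GRCr8). That build is not the authors', so its coordinates are given for the printed promoters alone. Authors' comparisons were not used. Some genes that the naming rule takes in are not reported here. The 3 rats a group are separate animals.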

Additional observations from a re-analysis of the deposited data

How the results depend on the processing

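Among the 7 transporters, the count past both thresholds in MS against Control was 1 with all 9 rats and 0 to 1 with each rat left out, being 0 without A1, A2, A6 or B4. It was 2 (Slco1a2 and Abcg2) when genes needed only 1 count over all rats. In MS+EA against MS it was 0, but 1 (Abcg2) under that filter and 1 (Abcg2) by the edgeR likelihood ratio test. In MS+EA against Control it was 0, and 2 (Slco1a2 and Abcb1a) with no fold threshold. Of the 169 other listed genes tested, 0 were past both edgeR thresholds in each comparison, where an unadjusted p under 0.05 was reached by 52, 22 and 44. In MS against Control DESeq2 gave 2, the likelihood ratio test 11, the 1-count filter 22, and leaving out single rats 0 to 1, with Slc16a1 called without C10. In MS+EA against MS the 1-count filter gave 1 (Ttr). In MS+EA against Control DESeq2 gave 1, the likelihood ratio test 10, the 1-count filter 17, the 6 rats of that comparison alone 8, no fold threshold 7, and leaving out single rats 0 to 8, with 8 reached without B4. The cause of these differences was not tested.

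Over all genes, 4, 3 and 230 were called by edgeR in the 3 comparisons, 70, 37 and 316 by DESeq2, 119, 49 and 418 by the likelihood ratio test, and 207, 72 and 469 under the 1-count filter. Fits that dropped a single rat gave edgeR counts of 2 to 22 (2 without A1 or A2, 9 without C3, 10 without C10 and 22 without B3), 1 to 4 (1 without A1 or C16) and 71 to 304 (71 without A1 and 121 without C10). No scaling moved the median of all genes by more than 0.05 on the log2 scale. Sign was checked only for values called with all 9 rats, which was Slco1a2 in MS against Control, and it kept its sign. Uncalled values could turn, as Slc2a1 did in MS against Control (-0.24 with all rats, 0.09 without A6). Of the recomputed values per gene, 1694 kept their side of the thresholds or, for the transporters, stayed within the spread of replicates. Direction was not part of that count for uncalled values. Of the rest, 16 came to pass the thresholds, and 12, all on the endothelial scale, moved by more than the spread. No paired analysis was possible because the groups share at most 1 replicate number and their rats are different animals.

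The transporters had at least 109 counts in every rat. With 3 rats a group, an exact test of 3 against 3 cannot give a two-sided p under 0.10. Without transcript lengths, levels were not compared between genes.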

Other observations

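Receptors through which hormones and xenobiotics act on transporter genes were also listed, 12 in all, of which 10 were tested. Their median log2 fold change was -0.03 in MS against Control, 0.02 in MS+EA against MS and -0.06 in MS+EA against Control, and none was past both edgeR thresholds. By unadjusted p under 0.05 there were 2, 0 and 3 of the 10 in the 3 comparisons (10.6%, 12.4% and 22.5% of all genes). DESeq2 called 0. Nr3c1, the glucocorticoid receptor, stood at 140.4 ± 11.3 CPM in Control, 175 ± 6.83 in MS and 184 ± 5.92 in MS+EA rats (SD, n = 3 each). Its log2 fold change was 0.32 (SE 0.0706) in MS against Control (edgeR adjusted p = 0.129) and 0.39 (SE 0.0707) in MS+EA against Control (edgeR adjusted p = 0.0131), the latter under the fold threshold. Thra, a thyroid hormone receptor, had -0.28 (SE 0.0637) in MS+EA against Control (edgeR adjusted p = 0.0283), also under that threshold. Bulk tissue does not show in which cells these receptor genes differed.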
